A study of Homo sapiens with 36 samples.

Results

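BRM siRNA added to Hic-5 siRNA was compared with Hic-5 siRNA plus a control siRNA in U2OS cells, a human osteosarcoma line, that carry a stably transfected glucocorticoid receptor alpha. The libraries were chosen by siRNA label: 6 labelled siBRMsiHic5 (BRM plus Hic-5 siRNA) and 6 labelled siHic5siNS (Hic-5 siRNA plus the non-specific siRNA siNS), which is 12 of the 36 RNA-seq libraries of the series. Each condition held 3 biological replicates, grown on different days, and each replicate gave 1 library treated with ethanol as vehicle and 1 with 100 nM dexamethasone (dex), a synthetic glucocorticoid. Cells were kept in low-glucose medium with serum, transfected, and 48 h later treated for 8 h. Every library of the comparison thus had Hic-5 siRNA on board. Within a treatment, the conditions differed by design in whether BRM siRNA or siNS came with it. The same table holds the control condition siNSsiNS and the single BRM condition siBRMsiNS, which were used as reference levels. The question set by the series is whether genes that Hic-5 keeps from glucocorticoid regulation need the remodelers CHD9 and BRM once Hic-5 is lost. The receptor in these cells comes from a transgene, and the labels do not say whether the line is 1 clone.

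BRM, encoded by SMARCA2, is one of the alternative ATPases of the SWI/SNF complexes, which slide or eject nucleosomes and are recruited to DNA by transcription factors. BRG1, encoded by SMARCA4, is the other, and a given complex holds one of them. The glucocorticoid receptor is a hormone-activated transcription factor that works with SWI/SNF at many of its binding sites. Hic-5, encoded by TGFB1I1, is a LIM-domain adaptor of the paxillin family that is found at focal adhesions and in the nucleus, where it acts as a coregulator of steroid receptors.

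The 12 libraries held 27.9 to 43.4 M counts each, within the range of 27.4 to 47.1 M over all 36. Levels are given as CPM, a gene's counts per 1 M counts of its library after upper-quartile scaling. RNA28S5, a ribosomal RNA gene, took 0.511% and 0.813% of the counts in siBRMsiHic5 replicate 1, but 4.40% to 5.76% in replicates 2 and 3. In siHic5siNS it took 0.642% to 0.959% in replicates 1 and 2, and 3.44% and 6.04% in replicate 3, so a high share was more frequent in siBRMsiHic5. With these 3 replicates left out, which leaves 1 against 2 and assumes that the lone one varies like the other conditions, 4378 genes were called, 2374 up and 2004 down. All 153 named genes that were called with all replicates kept their sign. Of the 7450 genes called with all replicates, 2 had the opposite sign. The named genes were picked from these same libraries, some because their libraries did not overlap, so their kept signs are no independent check. In the reference condition siBRMsiNS, RNA28S5 took 0.612% and 0.622% in replicate 1 and 1.92% to 7.51% in replicates 2 and 3. In siNSsiNS it took 5.46% in vehicle replicate 3 and 0.430% to 0.722% elsewhere. The difference with and without Hic-5 siRNA, given further on, was not refitted without such replicates. Of the mesenchymal and bone tumour markers written for the line, 8 of 10 were in the table, with summed levels of 4533 to 5748 CPM in siHic5siNS and 3333 to 5237 CPM in siBRMsiHic5. Epithelial markers (5 of 10 in the table) summed to 25.8 to 69.5 CPM and 15.5 to 40.7 CPM, and endothelial markers (7 of 8) to 17.3 to 26.4 CPM and 20.1 to 23.7 CPM. Blood cell markers (3 of 10) summed to 5.92 to 9.40 CPM in siHic5siNS and 7.27 to 10.1 CPM in siBRMsiHic5. Adipocyte markers (5 of 8) summed to 18.6 to 27.3 CPM and 28.9 to 50.3 CPM, and did not overlap between the conditions.

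The targeted transcripts were examined first. SMARCA2 stood at 38.1, 33.4 and 36.1 CPM with vehicle and 41.4, 36.9 and 51.3 with dex in siHic5siNS. With BRM siRNA added it stood at 8.35, 8.52 and 5.79 CPM with vehicle and 8.98, 9.63 and 8.43 with dex. Every siBRMsiHic5 library lay below every siHic5siNS library. Vehicle and dex counts of the same condition and replicate number were summed and the sums compared by edgeR's quasi-likelihood test, which gave a 4.79-fold fall (log2 change -2.26 ± 0.16 (SE), adjusted p = 1.67e-07). Vehicle libraries alone gave -2.25 ± 0.18 and dex libraries alone -2.26 ± 0.18, close to the summed value.

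TGFB1I1, the Hic-5 gene, was at 5.27, 11.2 and 4.74 CPM with vehicle and 5.46, 7.63 and 4.23 with dex in siHic5siNS. It was at 6.47, 4.81 and 4.41 CPM with vehicle and 4.87, 4.94 and 5.8 with dex in siBRMsiHic5, against 27.9 to 30.4 CPM in siNSsiNS. The 6 libraries of the 1 condition overlapped those of the other, and the difference did not pass the test (log2 change -0.30 ± 0.22 (SE), adjusted p = 0.263). Both siHic5siNS libraries numbered 2 had the highest TGFB1I1 of their condition. Without that replicate the estimate turned to 0.074 (adjusted p = 0.756). SMARCA4, the BRG1 ATPase gene, also fell: it was at 148, 150.2 and 134 CPM with vehicle and 136, 157 and 145 with dex in siHic5siNS and 70.9, 99.6 and 81.1 CPM with vehicle and 69.8, 102 and 79.2 with dex in siBRMsiHic5, with no overlap (log2 change -0.79 ± 0.13 (SE), adjusted p = 0.000121). Its level with BRM siRNA was 69.8 to 102 CPM, against 101 to 123 CPM in siNSsiNS, so both SWI/SNF ATPase transcripts were lower in siBRMsiHic5 than in siHic5siNS. CHD9, the other remodeler of the series, had a log2 change of -0.40 ± 0.16 (adjusted p = 0.052), and NR3C1, which encodes the glucocorticoid receptor, -0.24 ± 0.13 (adjusted p = 0.127); neither passed the test. Both calls rest on the model. CHD9 passed with vehicle alone (-0.59 log2, adjusted p = 0.00854, against -0.22 and 0.337 with dex) and without siHic5siNS replicate 2 (-0.55, adjusted p = 0.0121). It also passed with no scaling factors, DESeq2, a minimum of 5 CPM, hormone as a covariate, the mean of the vehicle and dex contrasts, and length and GC offsets, with log2 changes of -0.40 to -0.67 and adjusted p of 0.0498 to 0.000456. NR3C1 passed with hormone as a covariate (-0.23, adjusted p = 0.0495) and with length and GC offsets (-0.39, adjusted p = 0.0118).

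**Figure D1:**
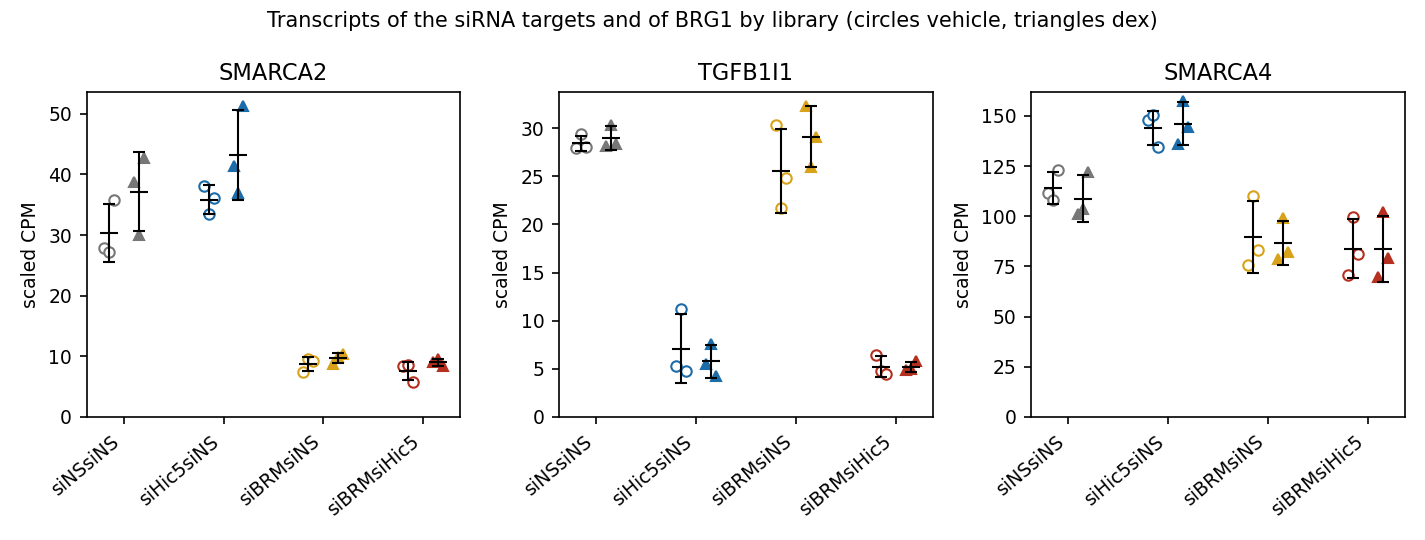
Levels of SMARCA2, TGFB1I1 and SMARCA4 in CPM (y axis) by siRNA condition (x axis), 1 point per library, circles for vehicle and triangles for dex, with mean ± SD bars over 3 replicates. SMARCA2 lies between 5.79 and 9.63 CPM in siBRMsiHic5 and between 33.4 and 51.3 CPM in siHic5siNS; TGFB1I1 is low in both conditions with Hic-5 siRNA; SMARCA4 is lower in siBRMsiHic5 than in siHic5siNS.

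Adding BRM siRNA moved a large share of the transcriptome in both directions. Over 15179 tested genes, 7450 (49.1%) were called at an adjusted p under 0.05: 3883 (25.6%) rose and 3567 (23.5%) fell. Changes were mostly small, with a median log2 change of 0.02 and a median absolute log2 change of 0.43. Changes of at least 2-fold were called up for 1214 genes (8.00%) and down for 1158 (7.63%), and of at least 4-fold for 219 (1.44%) and 225 (1.48%). In 6182 genes (40.7%) the 6 libraries of one condition all lay above the 6 of the other, 3381 (22.3%) with siBRMsiHic5 above and 2801 (18.5%) below. Both called and free of overlap were 5767 genes (38.0%). The 6 libraries of a condition are 3 vehicle and dex pairs, not 6 independent replicates.

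Vehicle and dex estimates were close, but they are not independent, since the libraries of a replicate deviated together (r 0.544 to 0.747). With vehicle 7505 genes (49.4%) were called, 3826 (25.2%) up and 3679 (24.2%) down, and with dex 6927 (45.6%), 3727 (24.6%) up and 3200 (21.1%) down. Of these, 6051 genes (39.9%) were called under both treatments, and all but 1 of them had the same sign. The exception was SLC38A4, an amino acid transporter gene, with a log2 change of 1.47 with vehicle (adjusted p = 0.0141) and -1.0 with dex (adjusted p = 0.0409), and its difference of -2.43 between treatments did not pass the test in the fit with a term per vehicle and dex pair (adjusted p = 0.0685). Another 1454 genes (9.58%) passed with vehicle only and 876 (5.77%) with dex only, which does not show that the estimates differ; the test of that difference is given further on.

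**Figure D2:**
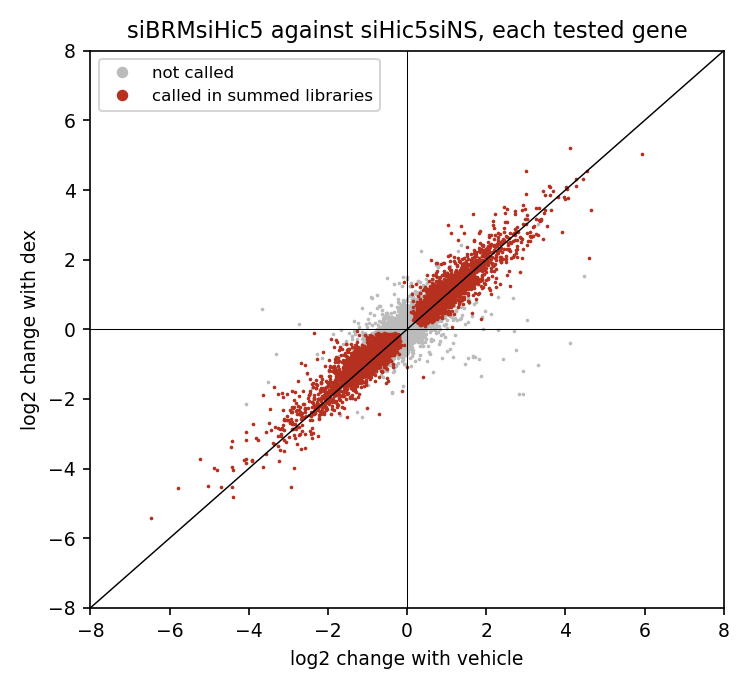
Log2 change of siBRMsiHic5 over siHic5siNS with vehicle (x axis) and with dex (y axis), 1 point per tested gene, genes called in the summed comparison in red. Points lie along the diagonal, and 6050 of 6051 genes called under both treatments share their sign. Vehicle and dex libraries come in pairs, so the axes are not independent.

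Calls moved with base composition. With genes split into 5 equal bins by transcript GC content, 34.1% of the lowest bin rose and 16.5% fell, with a median log2 change of 0.17, and 15.3% of the highest bin rose and 31.6% fell, with a median of -0.15. Median changes over 5 bins of transcript length ran from 0.06 in the shortest to -0.11 in the longest. With length and GC content as offsets 7405 genes were called, 6465 of them also called without offsets and in the same direction and 12 in the opposite one. The part of base composition in any single gene's change was not tested.

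The largest falls were chosen among called genes whose conditions did not overlap, so their lack of overlap was fixed by that choice. All 14 were in genes whose fitted level in siHic5siNS was above that in siNSsiNS. The excess was 1.23 (LINC00861) to 5.99 (MGP) on the log2 scale, in a comparison that shares the siHic5siNS libraries. TREM1, an innate immune receptor gene, was at 1.52, 2.45 and 1.87 CPM with vehicle and 1.39, 2.51 and 1.39 with dex in siHic5siNS. In siBRMsiHic5 it was at 0, 0 and 0.0467 CPM with vehicle and 0, 0 and 0.105 with dex, from 6 counts in all. TREM1 thus fell (log2 change -5.97 ± 0.63 (SE), adjusted p = 3.08e-06), to levels like the 0.0302 to 0.155 CPM of siNSsiNS, but all 6 counts were in siBRMsiHic5 replicate 3, so the fold has no fixed size without that replicate. A2M, which encodes the protease inhibitor alpha-2-macroglobulin, was at 389, 256 and 797 CPM with vehicle and 387, 293 and 713 with dex in siHic5siNS. With BRM siRNA added A2M was at 13.6, 11.1 and 19.6 CPM with vehicle and 14.1, 14.3 and 32.9 with dex, a 27-fold fall with no overlap (log2 change -4.76 ± 0.74 (SE), adjusted p = 8.92e-05), against 30.7 to 139 CPM in siNSsiNS. PZP, the pregnancy zone protein gene and a relative of A2M, fell as well (log2 change -4.18 ± 0.59 (SE), adjusted p = 4.06e-05). TNFAIP6, an inflammation-induced hyaluronan-binding protein gene, was at 1.81 to 5.53 CPM in siHic5siNS and 0 to 0.185 CPM in siBRMsiHic5 (log2 change -5.18 ± 0.71 (SE), adjusted p = 2.99e-05). RHOJ, an endothelial small GTPase gene, went from 3.22-9.14 CPM, the range over the 6 siHic5siNS libraries, to 0.133-0.444 CPM, the range over the 6 siBRMsiHic5 libraries, a form used for other genes too (log2 change -4.63 ± 0.35 (SE), adjusted p = 2.12e-07). The estimate of TNFAIP6 was -6.25 without siBRMsiHic5 replicate 3 and that of PZP -3.56 without siHic5siNS replicate 3.

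ABCG1, a sterol exporter gene, was at 26.1, 53.2 and 24.6 CPM with vehicle and 27.8, 34.6 and 19.2 with dex in siHic5siNS. It was at 2.51, 1.2 and 1.31 CPM with vehicle and 1.82, 1.14 and 1.95 with dex in siBRMsiHic5, with every library below every siHic5siNS library (log2 change -4.23 ± 0.44 (SE), adjusted p = 2.85e-06). APOD, which encodes apolipoprotein D, went from 5.78-13.7 CPM to 0.164-1.04 CPM (-3.95 log2), HEPHL1, a copper ferroxidase gene, from 6.74-16.1 CPM to 0.431-0.957 CPM (-3.97 log2), and MGP, the matrix Gla protein gene, from 9.35-18.1 CPM to 0.0819-1.4 CPM (-4.48 log2). The serine protease gene PRSS33 (-4.60 log2), the non-coding RNA gene LINC00861 (-4.48 log2) and FRRS1L (-3.90 log2), a glutamate receptor auxiliary protein gene, completed the named falls with 2 uncertain genes. These are the pseudogene AQP7P3 (-4.18 log2), which can share reads with other aquaporin copies, and NFIA-AS2 (-4.53 log2), an antisense transcript whose reads cannot be told apart from those of its partner, since the strand setting of the counting is not given. All of these were called, with adjusted p of at most 0.000875, the value for MGP. Without siBRMsiHic5 replicate 1 the estimates were -5.39 for MGP and -4.91 for AQP7P3.

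The largest rises included genes that were lower in siHic5siNS than in siNSsiNS and a few that were not. Their lack of overlap was likewise fixed by the choice of genes. SERPINB7, an epithelial serine protease inhibitor gene, was at 1.26, 0.84 and 1.55 CPM with vehicle and 0.939, 1.04 and 0.945 with dex in siHic5siNS. It was at 22.8, 20.1 and 16.6 CPM with vehicle and 21.2, 15.1 and 13.9 with dex in siBRMsiHic5, a 16.6-fold rise with no overlap (log2 change 4.06 ± 0.38 (SE), adjusted p = 1.22e-06), and siNSsiNS libraries held 2.2 to 6.79 CPM. AIM1L was at 0.388, 0.672 and 0.407 CPM with vehicle and 0.455, 0.459 and 0.389 with dex in siHic5siNS and 5.91, 9.2 and 7.68 CPM with vehicle and 5.07, 7.6 and 5.67 with dex in siBRMsiHic5, again with no overlap (log2 change 3.90 ± 0.33 (SE), adjusted p = 5.32e-07). NPPB, which encodes B-type natriuretic peptide, spread widely: it was 0.097, 0.101 and 0.0813 CPM with vehicle and 0.0853, 0.0919 and 0.0556 with dex in siHic5siNS and 13.9, 3.22 and 0.654 CPM with vehicle and 5.67, 1.57 and 0.712 with dex in siBRMsiHic5. All 6 siBRMsiHic5 libraries were higher (log2 change 5.60 ± 1.14 (SE), adjusted p = 0.000806), but the highest and lowest of them lay far apart, and without siBRMsiHic5 replicate 1 the estimate was 4.15. MYL1, a fast skeletal muscle myosin light chain gene, went from 0.0542-0.168 CPM to 1.8-2.88 CPM (log2 change 4.39 ± 0.57 (SE), adjusted p = 1.84e-05), near the 2.67 to 4.38 CPM of siNSsiNS.

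DHRS9, a retinol and steroid dehydrogenase gene, was at 0.0647 to 1.18 CPM in siHic5siNS, 5.89 to 18.3 CPM in siBRMsiHic5 and 0.2 to 0.619 CPM in siNSsiNS, and all siBRMsiHic5 libraries lay above the control ones (log2 change 4.22 ± 0.69 (SE), adjusted p = 0.000129). GFRA1, which encodes a receptor for the neurotrophic factor GDNF, had the same order, from 0.337-1.29 CPM to 2.82-21.1 CPM against 0.333 to 1.1 CPM in siNSsiNS (log2 change 3.82 ± 0.61 (SE), adjusted p = 0.000116). CHST4, a carbohydrate sulfotransferase gene (3.83 log2), CAPN14, a calpain protease gene (3.86 log2), PRR9 (4.27 log2), C6orf99 (4.56 log2) and the pancreatic lipase relative PNLIPRP3 (3.95 log2) also rose. CLCA3P (4.35 log2) is a pseudogene and the hair keratin-associated gene KRTAP2-2 (4.05 log2) has near-identical copies, so their reads may have been shared. Several of these genes were also higher with BRM siRNA alone. SERPINB7 was at 8.14 to 19.5 CPM in siBRMsiNS and DHRS9 at 0.846 to 4.54 CPM, above every siNSsiNS library. AIM1L, CHST4, GFRA1, PNLIPRP3 and CLCA3P also lay above every siNSsiNS library there. NPPB, MYL1, C6orf99, PRR9, KRTAP2-2 and CAPN14 overlapped siNSsiNS. Single replicates set the size of some rises: the estimate was 4.97 for DHRS9 without siHic5siNS replicate 2, 2.90 for GFRA1 without siBRMsiHic5 replicate 1, and 3.42 for PRR9 and 2.96 for PNLIPRP3 without siBRMsiHic5 replicate 3.

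**Figure D3:**
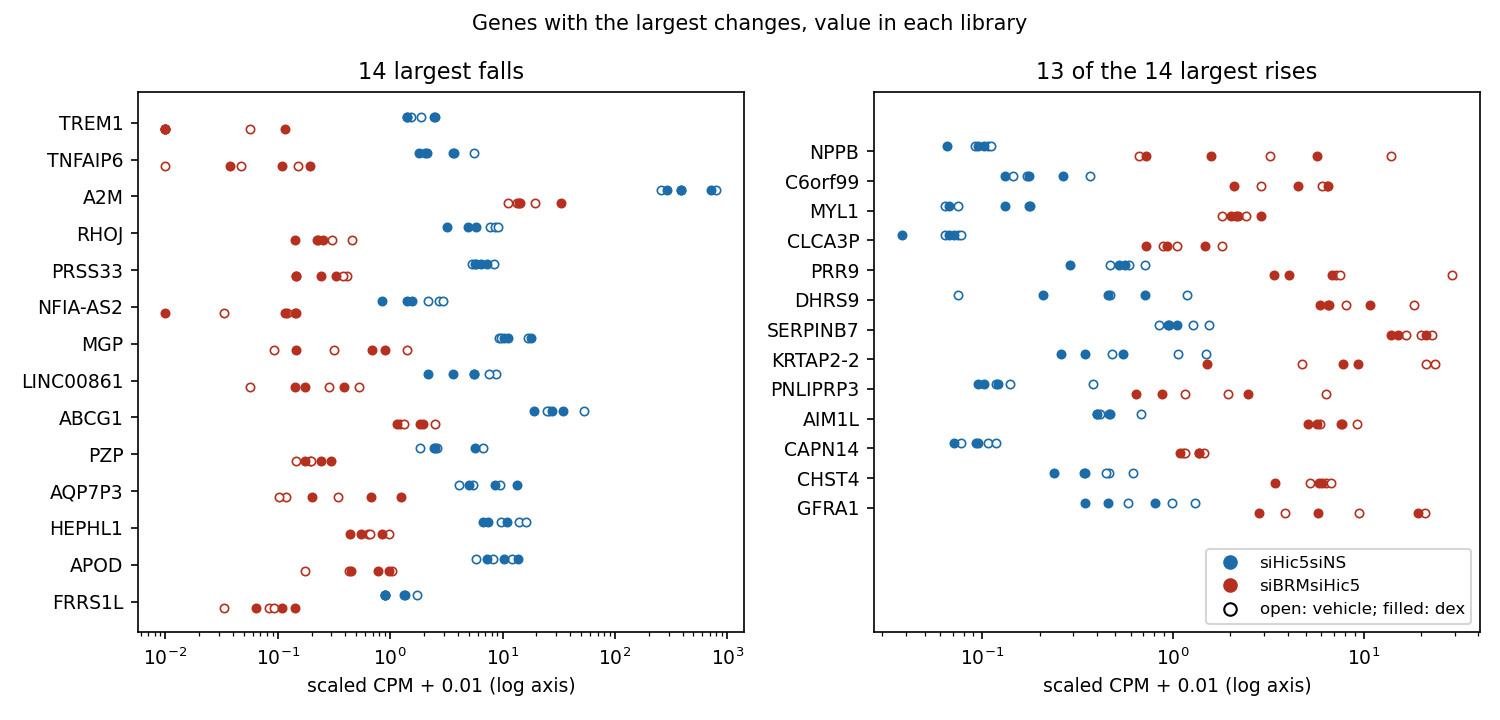
Levels in CPM + 0.01 on a log axis (x axis) of the 14 genes with the largest falls and 13 of the 14 with the largest rises among called, non-overlapping genes (y axis), 1 point per library, siHic5siNS in blue, siBRMsiHic5 in red, open for vehicle and filled for dex. The conditions do not overlap for any of these genes, which the choice of genes fixes, and vehicle and dex points lie together for most of them.

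Subunits of SWI/SNF itself were tested next. Among 26 tested SWI/SNF subunit genes 15 fell and 3 rose (median log2 change -0.37, against 0.02 over all tested genes, of which 23.5% fell and 25.6% rose). Those shares over all tested genes are the background for every list count of the summed comparison below. With vehicle alone 15 fell and 2 rose, and with dex alone 14 and 3. Besides both ATPases, the core subunit genes SMARCD1, SMARCC1 (-0.55 log2) and SMARCC2 (-0.41 log2) and the DNA-binding and reader subunits ARID2 (-0.59 log2), ARID1B (-0.53 log2), PHF10 (-0.80 log2) and BRD9 (-0.72 log2) fell. SMARCD1 was at 137, 146 and 127 CPM with vehicle and 124, 149 and 118 with dex in siHic5siNS and 69, 77.4 and 64.3 CPM with vehicle and 63.4, 76.6 and 62.5 with dex in siBRMsiHic5. The ranges did not meet (log2 change -0.95 ± 0.11 (SE), adjusted p = 7.45e-06), and the siBRMsiHic5 level was near the 61 to 71.2 CPM of siNSsiNS.

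BCL7A, an accessory subunit gene, had the largest fall of the complex. It was at 58.9, 82.4 and 51.9 CPM with vehicle and 58.8, 74.2 and 54.1 with dex in siHic5siNS. With BRM siRNA added it was at 9.91, 14.3 and 16.4 CPM with vehicle and 8.92, 13.6 and 15.1 with dex, still with no overlap (log2 change -2.28 ± 0.20 (SE), adjusted p = 7.01e-07), against 7.55 to 9.86 CPM in siNSsiNS. DPF3, a histone reader subunit known from muscle, moved the other way, from 2.68, 1.48 and 3.8 CPM with vehicle and 1.51, 0.98 and 1.33 with dex to 16.2, 12.5 and 15.3 CPM with vehicle and 11.8, 7.71 and 9.15 with dex (log2 change 2.63 ± 0.30 (SE), adjusted p = 5.44e-06). ACTL6A (0.33 log2) and SS18 (0.30 log2) were the other 2 that rose.

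Among 18 tested ATPases and helicases of other remodeling families 11 fell and 1 rose (median log2 change -0.49). With vehicle 13 fell and none rose, and with dex 10 fell and 1 rose. CHD6, of the CHD family, went from 95.5-130.5 CPM to 47.9-71.2 CPM (log2 change -0.95 ± 0.11 (SE), adjusted p = 4.96e-06). SMARCA1, the SNF2L ATPase of ISWI complexes, went from 98.9-129 CPM to 55.1-72.3 CPM (log2 change -0.81 ± 0.09 (SE), adjusted p = 5.32e-06), and ATRX, which deposits the histone variant H3.3 with DAXX, from 145-234 CPM to 88.3-118 CPM (log2 change -0.86 ± 0.11 (SE), adjusted p = 2.37e-05). SRCAP, which exchanges H2A.Z, fell as well (log2 change -0.75 ± 0.10 (SE), adjusted p = 3.24e-05). HELLS, a remodeler tied to DNA methylation and to dividing cells, was the one that rose (log2 change 0.81 ± 0.31 (SE), adjusted p = 0.0376), but no member rose without siBRMsiHic5 replicate 2 or 3 or siHic5siNS replicate 1 or 2.

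Many coregulators that steroid receptors use fell, while HSP90AB1 and 2 of its cochaperones, which fold the receptor, rose. Among 21 tested receptor, chaperone and coregulator genes 12 fell and 4 rose (median log2 change -0.39), with 14 and 4 for vehicle and 9 and 3 for dex. CREBBP, which encodes the histone acetyltransferase CBP, was at 231, 216 and 223 CPM with vehicle and 203, 231 and 221 with dex in siHic5siNS. It was at 115, 115 and 109.7 CPM with vehicle and 129, 123 and 122 with dex in siBRMsiHic5, without overlap (log2 change -0.89 ± 0.08 (SE), adjusted p = 1.13e-06). The p160 coactivator genes NCOA1 (-0.78 log2), NCOA2 (-1.01 log2) and NCOA3 (-0.33 log2), the acetyltransferase gene EP300 (-0.49 log2), the arginine methyltransferase gene CARM1 (-1.16 log2), and the corepressor gene NCOR1 (-0.39 log2) fell together with it.

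HSP90AB1, the constitutive HSP90 chaperone gene, was at 775, 497 and 1063 CPM with vehicle and 706, 504 and 971 with dex in siHic5siNS. It was at 2172, 2543 and 2328 CPM with vehicle and 2069, 2357 and 2279 with dex in siBRMsiHic5 (log2 change 1.61 ± 0.21 (SE), adjusted p = 2.23e-05), inside the 1831 to 2745 CPM of siNSsiNS. PTGES3, the p23 cochaperone gene (0.62 log2), and STIP1, the HOP cochaperone gene (0.35 log2), also rose. HSP90AB1 has pseudogene copies, and how reads shared between copies were counted is not given.

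Of 31 tested genes classically induced by glucocorticoids, 12 fell and 2 rose with BRM siRNA added (median log2 change -0.50). The counts were 11 and 2 with vehicle and 11 and 1 with dex. TSC22D3, which encodes the anti-inflammatory protein GILZ, was at 35.2, 40.3 and 38.9 CPM with vehicle and 158, 168 and 171 with dex in siHic5siNS. In siBRMsiHic5 it was at 11.6, 11.4 and 11.2 and 50.8, 45.7 and 41.5. Within each treatment the libraries did not overlap, and the fall was 3.61-fold (log2 change -1.85 ± 0.21 (SE), adjusted p = 5.59e-06), -1.74 log2 with vehicle and -1.85 log2 with dex.

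ZBTB16, a zinc finger repressor gene strongly induced by glucocorticoids, was at 6.11, 4.67 and 4.61 CPM with vehicle and 19.7, 23.4 and 23.6 with dex in siHic5siNS. In siBRMsiHic5 it was at 1.44, 1.39 and 0.864 and 4.74, 4.88 and 4.82 (log2 change -2.21 ± 0.24 (SE), adjusted p = 3.68e-06). Both conditions were higher with dex than with vehicle, and siBRMsiHic5 was lower under each. CEBPD (log2 change -1.53 ± 0.21 (SE), adjusted p = 2.46e-05), a C/EBP transcription factor gene, and KLF15 (log2 change -1.46 ± 0.19 (SE), adjusted p = 2.37e-05), a metabolic regulator gene, fell too. FKBP5 (-1.09 log2), the receptor's feedback immunophilin gene, PER1 (-1.13 log2), a circadian clock gene, KLF9 (-1.11 log2), PDK4 (-0.96 log2) and PDE4B (-1.62 log2) were among the others that fell. SGK1 (-0.26 log2, adjusted p = 0.535) and DUSP1 (0.02 log2, adjusted p = 0.964), a kinase gene and a MAP kinase phosphatase gene of the same list, did not pass. SCNN1A (0.55 log2) and ANPEP (0.89 log2) rose, but the list gave no rise without siBRMsiHic5 replicate 1 or siHic5siNS replicate 1, and 1 without siBRMsiHic5 replicate 2 or siHic5siNS replicate 2 or 3.

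Against siNSsiNS, in comparisons that share these siHic5siNS and siBRMsiHic5 libraries, the glucocorticoid-induced list gave 13 higher and 3 lower in siHic5siNS (median log2 difference 0.28) and 2 higher and 9 lower in siBRMsiHic5 (median -0.39). Over all genes the siHic5siNS comparison called 8372 (55.2%), 3990 (26.3%) higher and 4382 (28.9%) lower, and the siBRMsiHic5 comparison 7492 (49.4%), 3674 (24.2%) higher and 3818 (25.2%) lower.

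Few of the inflammatory genes that glucocorticoids repress passed the test. Among 15 tested members 2 rose and 1 fell (median log2 change 0.39, but -0.45 to 0.75 with 1 replicate left out). VCAM1, a leukocyte adhesion molecule gene, fell from a low level, 0.134 to 1.14 CPM in siHic5siNS and 0 to 0.111 CPM, or 11 counts, in siBRMsiHic5 (log2 change -3.47 ± 0.97 (SE), adjusted p = 0.00744). IL6 (log2 change 1.21 ± 0.48 (SE), adjusted p = 0.0483) and LIF (log2 change 0.64 ± 0.24 (SE), adjusted p = 0.0339), cytokine genes, rose. Both calls were lost without siHic5siNS replicate 1 or 3 or siBRMsiHic5 replicate 3. That of LIF was also lost without siBRMsiHic5 replicate 1 and with limma voom, which models the vehicle and dex pairs (adjusted p = 0.0524). That of IL6 was also lost without siBRMsiHic5 replicate 2, with no scaling factors, with the replicate block and with length and GC offsets. Among 14 tested NF-kB subunit and feedback genes 3 fell and none rose (median -0.28, or -0.40 to -0.13 with 1 replicate left out, the farthest without siHic5siNS replicate 2): NFKBIZ, a nuclear cofactor gene (-1.23 log2), REL (-1.26 log2) and RELA (-0.53 log2), both NF-kB subunit genes. Without siHic5siNS replicate 2 only 1 of the 3 was called. REL also lost its call with limma voom (adjusted p = 0.111). RELA lost its call in the 3 fits that left out a siBRMsiHic5 replicate and with length and GC offsets (adjusted p = 0.0509).

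All 25 tested mitotic genes rose, against 25.6% of all tested genes, with log2 changes of 0.34 to 1.67 and a median of 1.04. With vehicle alone 22 rose and none fell, and with dex alone all 25 rose. With 1 replicate left out 22 to 25 rose and none fell, with medians of 0.86 (without siHic5siNS replicate 2) to 1.24 (without siHic5siNS replicate 3). CDC20, an activator of the anaphase-promoting complex, was at 52.3, 25.4 and 43.4 CPM with vehicle and 39.8, 25.8 and 59.8 with dex in siHic5siNS. With BRM siRNA added it was at 137, 155 and 89 CPM with vehicle and 149.8, 149.8 and 97.9 with dex, a 3.17-fold rise with no overlap (log2 change 1.67 ± 0.24 (SE), adjusted p = 4.9e-05).

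CCNB1, which encodes the mitotic cyclin B1, was at 79.2, 68.4 and 85.3 CPM with vehicle and 74, 65.6 and 97.4 with dex in siHic5siNS and 209, 225 and 192 CPM with vehicle and 205, 209.8 and 179 with dex in siBRMsiHic5 (log2 change 1.38 ± 0.16 (SE), adjusted p = 7.13e-06). BUB1, a spindle checkpoint kinase gene, went from 34.2-55.9 CPM to 96.2-122 CPM (log2 change 1.27 ± 0.15 (SE), adjusted p = 6.93e-06), and BIRC5, the survivin gene, from 69-89.3 CPM to 146-200.3 CPM (log2 change 1.15 ± 0.16 (SE), adjusted p = 4.33e-05). For all 4 genes the lowest siBRMsiHic5 library was above the highest siHic5siNS library. In bulk RNA, more dividing cells and more transcript per dividing cell cannot be told apart, and the same holds for every list here.

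DNA replication genes rose with them: 24 of 31 tested members rose and none fell (median 0.85). The rises were 21 with vehicle, 24 with dex and 20 to 25 with 1 replicate left out (medians of 0.62 to 1.16). CDT1, an origin licensing factor gene, was at 21, 14.3 and 22.9 CPM with vehicle and 19.5, 17.7 and 23.5 with dex in siHic5siNS and 43.6, 47.9 and 43.2 CPM with vehicle and 45.1, 45.7 and 43.9 with dex in siBRMsiHic5 (log2 change 1.18 ± 0.15 (SE), adjusted p = 1.84e-05). ORC1, an origin recognition subunit gene (log2 change 1.42 ± 0.22 (SE), adjusted p = 9.81e-05), RFC4, a clamp loader gene (log2 change 1.23 ± 0.16 (SE), adjusted p = 2.21e-05), and MCM5, a replicative helicase gene (log2 change 1.09 ± 0.17 (SE), adjusted p = 0.000103), rose without overlap. RRM1 (1.62 log2) and CDC6 (1.60 log2) had the largest rises of the list. The 7 that were not called included the G1/S regulators E2F1 (-0.06 log2, adjusted p = 0.894) and CCNE1 (-0.23 log2, adjusted p = 0.56).

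The control libraries place these levels. Summed over the 25 mitotic genes, siNSsiNS libraries held 4151 to 4971 CPM, siHic5siNS 1268 to 2083 CPM and siBRMsiHic5 2663 to 3422 CPM, with no overlap between any of them. Against siNSsiNS all 25 were lower in siHic5siNS (median log2 difference -1.47), and in siBRMsiHic5 13 were lower and 1 higher (median -0.44). The replication list gave 25 lower and none higher in siHic5siNS (median -0.86) and 3 lower and 1 higher in siBRMsiHic5 (median -0.11). These comparisons share libraries with the main one and are not independent of it.

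**Figure D4:**
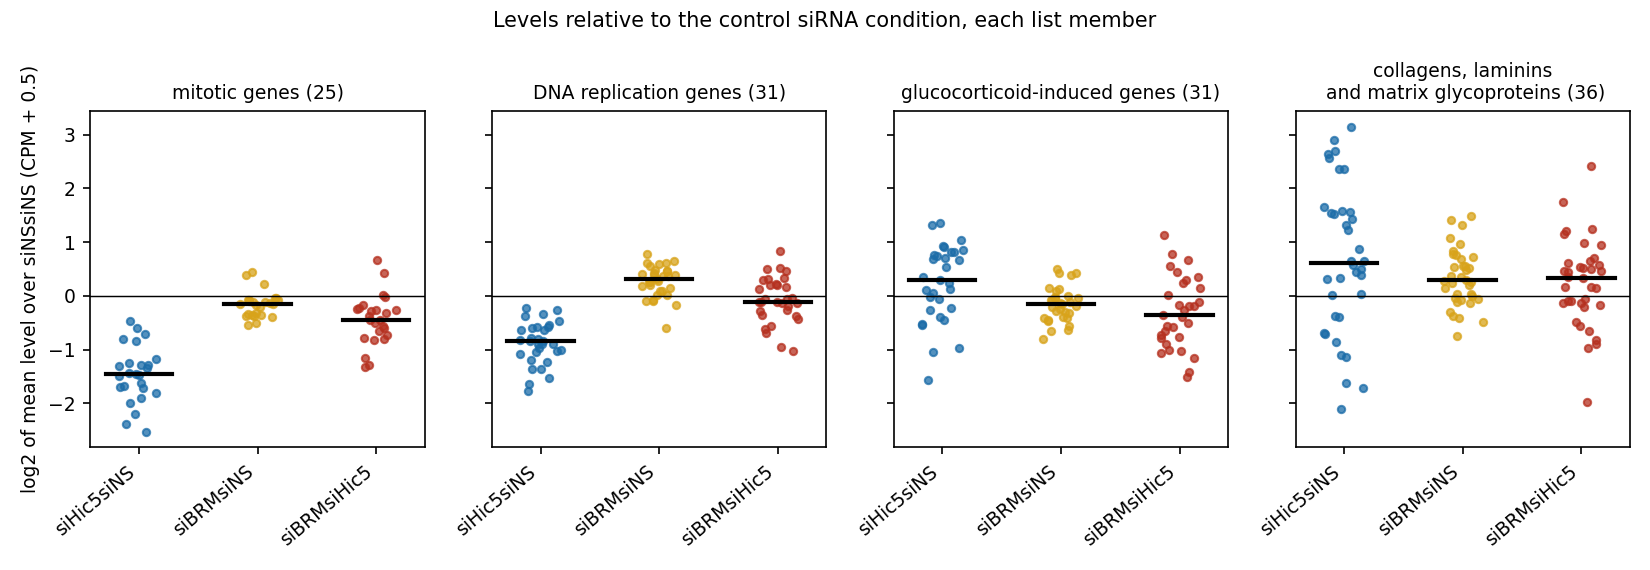
Log2 of the mean level over siNSsiNS, from CPM + 0.5 (y axis), of each member of 4 lists in siHic5siNS, siBRMsiNS and siBRMsiHic5 (x axis), 1 point per gene, with lines for medians. Mitotic and replication genes are lowest in siHic5siNS and closer to 0 in siBRMsiHic5; glucocorticoid-induced and matrix genes are mostly above 0 in siHic5siNS.

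Since the division genes moved together, the DNA just upstream of their starts is shown for 3 mitotic and 3 replication genes, 250 bases ending before the RefSeq start, read on the gene's strand from GRCh38.p14. In the mitotic promoters capitals mark the cell cycle homology region, searched as TTTGAA and TTCGAA on both strands, a known element of late cell cycle promoters. CDC20 lies at chr1:43358731-43358980 (+ strand), CENPA, the centromeric histone gene, at chr2:26785806-26786055 (+ strand) and TOP2A, the topoisomerase II alpha gene, at chr17:40417897-40418146 (- strand).
CDC20: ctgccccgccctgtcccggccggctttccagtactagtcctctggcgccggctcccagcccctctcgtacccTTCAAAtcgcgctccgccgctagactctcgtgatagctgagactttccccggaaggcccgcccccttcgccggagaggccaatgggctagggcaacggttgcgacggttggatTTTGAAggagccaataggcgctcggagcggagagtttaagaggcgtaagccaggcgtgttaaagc
CENPA: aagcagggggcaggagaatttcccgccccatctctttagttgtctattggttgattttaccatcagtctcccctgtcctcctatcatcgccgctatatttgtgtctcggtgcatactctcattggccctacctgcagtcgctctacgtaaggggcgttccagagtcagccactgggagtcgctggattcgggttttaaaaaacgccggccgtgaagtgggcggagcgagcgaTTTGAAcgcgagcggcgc
TOP2A: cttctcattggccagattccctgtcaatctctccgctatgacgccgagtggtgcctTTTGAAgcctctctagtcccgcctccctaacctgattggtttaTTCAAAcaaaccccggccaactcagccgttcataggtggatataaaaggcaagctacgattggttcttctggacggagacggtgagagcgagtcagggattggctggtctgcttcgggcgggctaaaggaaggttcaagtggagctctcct
In the replication promoters capitals mark TTTNGCGC on both strands, a loose spelling of the E2F site in which N is any base. Other spellings of the site were not searched and stay in lower case. CDT1 lies at chr16:88803539-88803788 (+ strand), POLE2, a DNA polymerase epsilon subunit gene, at chr14:49688215-49688464 (- strand) and MCM7, a replicative helicase gene, at chr7:100101398-100101647 (- strand).
CDT1: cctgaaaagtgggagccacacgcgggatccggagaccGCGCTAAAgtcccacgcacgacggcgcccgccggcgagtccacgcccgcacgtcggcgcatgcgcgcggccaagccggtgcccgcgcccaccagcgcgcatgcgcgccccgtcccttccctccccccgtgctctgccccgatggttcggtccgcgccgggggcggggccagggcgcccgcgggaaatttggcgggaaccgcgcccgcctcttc
POLE2: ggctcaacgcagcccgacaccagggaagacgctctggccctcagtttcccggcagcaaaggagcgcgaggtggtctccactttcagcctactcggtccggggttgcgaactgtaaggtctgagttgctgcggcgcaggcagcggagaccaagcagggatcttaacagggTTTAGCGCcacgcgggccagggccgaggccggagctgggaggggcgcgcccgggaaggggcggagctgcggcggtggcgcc
MCM7: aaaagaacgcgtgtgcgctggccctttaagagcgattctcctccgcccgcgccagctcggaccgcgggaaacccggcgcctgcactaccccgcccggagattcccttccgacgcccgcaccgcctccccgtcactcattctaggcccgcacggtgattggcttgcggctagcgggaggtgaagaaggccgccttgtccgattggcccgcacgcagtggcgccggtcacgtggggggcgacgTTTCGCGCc
The 6 were chosen because they carry a match. CENPA rose by 1.30 log2, TOP2A by 0.77, POLE2 by 0.99 and MCM7 by 0.58.

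Over the whole lists, 10 of 19 mitotic genes with a promoter in the table (52.6%) held the cell cycle homology region within these 250 bases, against 1170 of 11787 promoters of all genes tested (9.93%), and 2 of 27 replication genes did (7.41%). The CCAAT box, searched as CCAAT on both strands, was in 17 of 19 mitotic (89.5%) and 17 of 27 replication promoters (63.0%), against 4052 (34.4%). The loose E2F spelling TTTNGCGC was in 1 of 19 mitotic (5.26%) and 8 of 27 replication promoters (29.6%), against 277 (2.35%). A match describes the letters in this window and says nothing of what is bound there.

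Of 16 tested striated muscle genes, 9 were lower and 1 higher in siHic5siNS than in siNSsiNS. With BRM siRNA added 9 rose and 1 fell (median log2 change 0.92), with 8 and 0 for vehicle and 10 and 1 for dex; without siHic5siNS replicate 1 the count of rises was 5. TNNT1, a slow troponin T gene, was at 46.5, 51.8 and 41.1 CPM with vehicle and 51.4, 58.1 and 39.3 with dex in siHic5siNS. In siBRMsiHic5 it was at 136, 107 and 82.3 CPM with vehicle and 119.7, 104 and 97.8 with dex with no overlap (log2 change 1.16 ± 0.19 (SE), adjusted p = 0.000155), against 54 to 89.7 CPM in siNSsiNS. MYH3, the embryonic myosin heavy chain gene, went from 1.68-2.94 CPM to 3.2-5.21 CPM (log2 change 0.92 ± 0.19 (SE), adjusted p = 0.00086). MYL4, the embryonic and atrial light chain gene, went from 0.0569-0.226 CPM to 0.488-1.24 CPM (log2 change 2.84 ± 0.66 (SE), adjusted p = 0.00219), well under the 14.2 to 25.9 CPM of siNSsiNS.

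Among 21 tested actin-based contractile genes 6 fell and 2 rose (median -0.31). FLNC, the muscle filamin gene, was at 827, 718 and 625 CPM with vehicle and 501, 799 and 461 with dex in siHic5siNS and 2411, 1745 and 1578 CPM with vehicle and 2315, 1606 and 1157 with dex in siBRMsiHic5 (log2 change 1.47 ± 0.21 (SE), adjusted p = 4.05e-05). TPM2, a tropomyosin gene, rose (log2 change 1.09 ± 0.22 (SE), adjusted p = 0.000883), while MYH10, a non-muscle myosin II gene (log2 change -0.82 ± 0.12 (SE), adjusted p = 5.06e-05), and MKL1, the SRF coactivator gene (log2 change -0.48 ± 0.10 (SE), adjusted p = 0.000976), fell. MKL1 did not pass with length and GC offsets (-0.20, adjusted p = 0.158). Of 17 tested paxillin family and LIM adaptor genes, the relatives of Hic-5, 5 rose and 6 fell, against 25.6% and 23.5% of all tested genes. Their median was -0.21, which became 0.01 without siHic5siNS replicate 2. PDLIM1, an alpha-actinin-binding LIM gene, went from 2.78-6.16 CPM to 16.3-30 CPM (log2 change 2.29 ± 0.36 (SE), adjusted p = 8.98e-05). AJUBA (1.14 log2) and LIMD1 (0.59 log2), LIM adaptors of Hippo signalling, rose, and LPP (-0.61 log2) and the paxillin gene PXN (-0.62 log2) fell. The rise count of that list was 3 without siBRMsiHic5 replicate 1 or 3 or siHic5siNS replicate 1 or 3.

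The extracellular matrix is the scaffold that cells secrete and adhere to. Among 36 tested collagens, laminins and matrix glycoproteins 14 fell and 6 rose (median log2 change -0.51), with 15 and 4 for vehicle and 11 and 6 for dex. FN1, the fibronectin gene, was at 7118, 3797 and 5808 CPM with vehicle and 7043, 5239 and 6006 with dex in siHic5siNS. It was at 928, 885 and 566 CPM with vehicle and 1397, 1254 and 951 with dex in siBRMsiHic5, a 5.86-fold fall with no overlap (log2 change -2.55 ± 0.33 (SE), adjusted p = 1.96e-05), to near the 586 to 1138 CPM of siNSsiNS. COL6A1, a microfibrillar collagen VI chain gene, was at 738, 737 and 623 CPM with vehicle and 747, 798 and 625 with dex in siHic5siNS and 158, 123 and 153 CPM with vehicle and 163, 152 and 166 with dex in siBRMsiHic5 (log2 change -2.22 ± 0.23 (SE), adjusted p = 2.37e-06), and the other collagen VI chain genes COL6A2 (-1.20 log2) and COL6A3 (-2.51 log2) fell with it. LAMB1, a laminin beta chain gene (-0.92 log2), FBN2, the fibrillin 2 gene (-0.90 log2), and COL4A1 (-1.43 log2) and COL4A2 (-1.08 log2), of basement membrane collagen IV, also fell. The 6 that rose included the collagen IV chain genes COL4A3 (1.94 log2) and COL4A4 (1.97 log2) and lumican, LUM (2.29 log2). Against siNSsiNS, in comparisons that share libraries, 20 of the 36 were higher and 9 lower in siHic5siNS, and 9 higher and 7 lower in siBRMsiHic5.

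Integrins are the receptors by which cells hold that matrix. Among 28 tested integrin and focal adhesion genes 10 fell and 6 rose, against 23.5% and 25.6% of all tested genes. Their median was -0.19, but -0.11 without siBRMsiHic5 replicate 2. ITGA2, the collagen-binding alpha-2 integrin gene, was at 887, 729.8 and 530.4 CPM with vehicle and 647, 688 and 461 with dex in siHic5siNS. It was at 64, 104 and 129 CPM with vehicle and 60.5, 75.9 and 83.9 with dex in siBRMsiHic5 with no overlap (log2 change -2.92 ± 0.31 (SE), adjusted p = 3.08e-06). ITGB8, which encodes an activator of latent TGF-beta, went from 94.2-144 CPM to 13-27.9 CPM (log2 change -2.57 ± 0.33 (SE), adjusted p = 1.47e-05), and NEDD9, a focal adhesion scaffold gene, from 41.9-65.7 CPM to 9.95-17.4 CPM (log2 change -1.87 ± 0.22 (SE), adjusted p = 8.6e-06). ITGA4, a fibronectin and VCAM1 receptor gene, rose from 2.91-5.8 CPM to 12.7-16 CPM (log2 change 1.64 ± 0.19 (SE), adjusted p = 7.35e-06).

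Among 27 tested matrix proteases and inhibitors 9 fell and 5 rose, against 23.5% and 25.6% of all tested genes. Their median was -0.15, or -0.23 to -0.10 with 1 replicate left out, the farthest without siBRMsiHic5 replicate 3. The rises were 2 or 3 when any replicate but siBRMsiHic5 replicate 2 was left out. MMP2, gelatinase A, was at 1301, 1105 and 1156 CPM with vehicle and 1316, 1109.6 and 1099 with dex in siHic5siNS and 354, 356 and 365 CPM with vehicle and 362, 344 and 362 with dex in siBRMsiHic5 (log2 change -1.73 ± 0.20 (SE), adjusted p = 5.37e-06). MMP14, the membrane protease that activates MMP2, went from 290.0-393 CPM to 136-169 CPM (log2 change -1.16 ± 0.13 (SE), adjusted p = 5.16e-06), and MMP10, a stromelysin gene, from 4.81-18.2 CPM to 0.76-2.22 CPM (log2 change -2.97 ± 0.51 (SE), adjusted p = 0.000207). ADAMTS12, a cartilage matrix protease gene, rose from 21.2-43.8 CPM to 57.4-75.6 CPM (log2 change 1.14 ± 0.15 (SE), adjusted p = 1.67e-05).

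Among 23 tested TGF-beta pathway genes 6 fell and 5 rose (median -0.50), shares near the 23.5% and 25.6% of all tested genes; the rises were 2 without siBRMsiHic5 replicate 1 and 3 without siHic5siNS replicate 3. TGFB1, the ligand gene, was at 285, 242 and 292 CPM with vehicle and 257, 276 and 261 with dex in siHic5siNS and 159, 147 and 161 CPM with vehicle and 139.9, 135 and 139 with dex in siBRMsiHic5 (log2 change -0.87 ± 0.13 (SE), adjusted p = 6.97e-05). LTBP1, which holds the latent ligand in the matrix, went from 152-316 CPM to 39.4-81.1 CPM (log2 change -2.05 ± 0.22 (SE), adjusted p = 4.09e-06). TGFBR3, the betaglycan coreceptor gene, rose from 8.89-19.6 CPM to 20.1-30.4 CPM (log2 change 0.86 ± 0.18 (SE), adjusted p = 0.000875). Among 11 tested genes known from other cell lines to depend on SWI/SNF, 3 rose and 2 fell (median 0.09, or 0.02 to 0.22 with 1 replicate left out, the farthest without siHic5siNS replicate 2): RHOB, a small GTPase gene, fell (log2 change -2.06 ± 0.32 (SE), adjusted p = 8.04e-05), as did the small heat shock gene CRYAB (log2 change -0.67 ± 0.21 (SE), adjusted p = 0.014), which lost its call without siHic5siNS replicate 2. Among the rises were the simple keratin genes KRT18 (1.13 log2) and KRT8 (0.72 log2). The list gave 1 rise without siBRMsiHic5 replicate 1, siHic5siNS replicate 1 or siHic5siNS replicate 3, and 1 fall without siHic5siNS replicate 2.

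Immediate early genes are switched on within minutes of a growth signal. Among 19 tested members 4 fell, 1 rose and 14 were not called (median -1.05), while 23.5% of all tested genes fell and 25.6% rose. JUND, an AP-1 subunit gene, was at 171, 386 and 227 CPM with vehicle and 174, 302 and 185 with dex in siHic5siNS and 47, 57.7 and 63.5 CPM with vehicle and 38.2, 55.2 and 48.9 with dex in siBRMsiHic5 (log2 change -2.21 ± 0.24 (SE), adjusted p = 3.68e-06). FOS (log2 change -1.56 ± 0.43 (SE), adjusted p = 0.00664) and JUNB (log2 change -2.40 ± 0.70 (SE), adjusted p = 0.00967) fell as well, and JUNB lost its call without siHic5siNS replicate 2, where 2 of the list fell, 2 rose, the median was -0.42 and the estimate of JUNB -1.76. MYC, the growth-promoting transcription factor gene, was at 82.4, 47 and 81.1 CPM with vehicle and 73.8, 67.2 and 52.6 with dex in siHic5siNS. It was at 215, 168 and 201 CPM with vehicle and 144, 122 and 129.9 with dex in siBRMsiHic5, all above siHic5siNS (log2 change 1.28 ± 0.11 (SE), adjusted p = 6.7e-07).

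Feedback genes of ERK signalling gave 5 falls and 2 rises among 15 tested (median -0.29, or -0.36 to -0.05 with 1 replicate left out, the farthest without siHic5siNS replicate 2). The falls dropped to 2 without siBRMsiHic5 replicate 2 or siHic5siNS replicate 2, and to 3 without siBRMsiHic5 replicate 3. PHLDA1 went from 93.4-177 CPM to 17.9-52.7 CPM (log2 change -1.95 ± 0.36 (SE), adjusted p = 0.000408), and ETV1, an ETS factor gene, fell (-1.41 log2), whereas ETV4, its relative (0.77 log2), and AREG, the EGF receptor ligand amphiregulin (1.24 log2), rose.

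WNT ligands and feedback genes gave 7 falls and 4 rises among 23 tested, against 23.5% and 25.6% of all tested genes. Their median was -0.25, or -0.40 to -0.15 with 1 replicate left out, the farthest without siHic5siNS replicate 2. Without siHic5siNS replicate 3 the list gave 3 falls. NOTUM, which encodes a secreted enzyme that inactivates WNT proteins, was at 49.5, 36.9 and 51.8 CPM with vehicle and 45.6, 50.9 and 53 with dex in siHic5siNS. It was at 3.44, 5.08 and 5.72 CPM with vehicle and 2.02, 4.83 and 7.67 with dex in siBRMsiHic5, a 10-fold fall with no overlap (log2 change -3.33 ± 0.32 (SE), adjusted p = 1.42e-06). NKD1, an intracellular WNT antagonist gene, went from 62.1-75.3 CPM to 8.19-23.3 CPM (log2 change -2.21 ± 0.21 (SE), adjusted p = 1.41e-06), and SFRP1, a secreted WNT antagonist gene, fell by 1.20 on the log2 scale. The ligand gene WNT7B rose from 1.22-2.11 CPM to 4.85-9.72 CPM (log2 change 2.01 ± 0.25 (SE), adjusted p = 1.16e-05).

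Of 12 tested bone genes 3 fell and none rose (median -0.36), against 23.5% and 25.6% of all tested genes. The 3 were RUNX2, the osteoblast master regulator gene (log2 change -0.97 ± 0.22 (SE), adjusted p = 0.0017), BMP2, a bone morphogenetic ligand gene (log2 change -1.11 ± 0.29 (SE), adjusted p = 0.00473), and TNFRSF11B, the osteoprotegerin gene. TNFRSF11B was at 79.9, 47.9 and 90.6 CPM with vehicle and 36.2, 12 and 31.7 with dex in siHic5siNS and 9.32, 8.06 and 9.43 CPM with vehicle and 5.64, 7.49 and 8.65 with dex in siBRMsiHic5 (log2 change -2.60 ± 0.31 (SE), adjusted p = 9.51e-06). Angiogenic genes split, with 7 falls and 5 rises among 18 tested (median -0.44, or -0.56 to -0.22 with 1 replicate left out, the farthest without siHic5siNS replicate 2), and the rises were 1 without siBRMsiHic5 replicate 1 and 2 without siHic5siNS replicate 2. NRP1, the VEGF coreceptor gene (-1.14 log2), PDGFC (-1.58 log2) and VEGFC (-0.79 log2), growth factor genes, and KDR, a VEGF receptor gene (-1.86 log2), fell.

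Neuronal genes gave 7 rises and 3 falls among 22 tested, against 25.6% and 23.5% of all tested genes. Their median was 0.38, or 0.18 to 0.38 with 1 replicate left out, the farthest without siHic5siNS replicate 2. GAP43, a growth cone protein gene, went from 0.672-1.35 CPM to 3.9-9.15 CPM (log2 change 2.54 ± 0.39 (SE), adjusted p = 8.41e-05), and NLGN1, a synaptic adhesion gene, from 0.0613-0.407 CPM to 0.765-1.63 CPM (log2 change 2.34 ± 0.44 (SE), adjusted p = 0.000477; 2.94 without siHic5siNS replicate 3). STMN3 (-1.36 log2), a microtubule regulator gene, and SV2A (-1.10 log2), a synaptic vesicle gene, fell. Cadherins and single protocadherins gave 5 falls and 1 rise among 16 tested (median -0.35). PCDH1 went from 15.5-22.3 CPM to 1.49-2.74 CPM (log2 change -3.25 ± 0.33 (SE), adjusted p = 2.45e-06), CDH11, osteoblast cadherin, fell from 51.5-74.7 CPM to 19.6-25.6 CPM (log2 change -1.52 ± 0.15 (SE), adjusted p = 1.78e-06) and PCDH18 fell by 1.66 on the log2 scale. PCDH17 rose (0.97 log2). Potassium channel genes gave 7 rises and 5 falls among 28 tested, against 25.6% and 23.5% of all tested genes (median 0.05, but -0.03 without siBRMsiHic5 replicate 3 and 0.16 without siHic5siNS replicate 1 or siBRMsiHic5 replicate 2; 4 rises without siBRMsiHic5 replicate 2 or siHic5siNS replicate 2), with KCNK1 (-1.06 log2) and KCNJ2 (-1.18 log2), a background leak and an inward rectifier channel, lower and KCNN4, the calcium-activated channel, higher (1.09 log2).

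Oxidative phosphorylation is the respiratory chain and ATP synthase of mitochondria. Among 29 tested nuclear genes of it 15 rose and 1 fell (median log2 change 0.36), with 17 and 0 for vehicle and 13 and 1 for dex; with length and GC offsets 11 rose and none fell. COX6C, a cytochrome oxidase subunit gene, was at 69.8, 73 and 84.4 CPM with vehicle and 81.6, 75.1 and 82.7 with dex in siHic5siNS. It was at 143, 143 and 145 CPM with vehicle and 135, 137 and 142 with dex in siBRMsiHic5 with no overlap (log2 change 0.86 ± 0.09 (SE), adjusted p = 2.39e-06). SDHD, of succinate dehydrogenase (0.64 log2), NDUFA4, first described in complex I (0.61 log2), and NDUFV2, a complex I subunit gene (0.56 log2), rose without overlap. Of 34 tested cytosolic ribosomal protein genes 3 rose and none fell (median 0.18, or 0.08 to 0.28 with 1 replicate left out, the farthest without siBRMsiHic5 replicate 1). RPL5, a large subunit protein that also restrains MDM2, was at 292, 162 and 339 CPM with vehicle and 289.9, 169 and 340.4 with dex in siHic5siNS and 742, 858 and 776 CPM with vehicle and 735, 804 and 786 with dex in siBRMsiHic5 (log2 change 1.56 ± 0.20 (SE), adjusted p = 1.46e-05), against 1081 to 1179 CPM in siNSsiNS. RPL4 (0.88 log2) and RPL27 (0.85 log2) were the others; ribosomal protein genes have pseudogene copies, so their counts are uncertain.

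Of 21 tested ATF4 and unfolded protein response genes 5 rose and 5 fell, near the 25.6% and 23.5% of all tested genes (median 0.09, but -0.0091 without siBRMsiHic5 replicate 3 and 0.03 without siHic5siNS replicate 2). Endoplasmic reticulum chaperone HSP90B1, GRP94, went from 349-532 CPM to 836-912 CPM (log2 change 0.92 ± 0.13 (SE), adjusted p = 3.86e-05), and PHGDH, the first enzyme of serine synthesis, rose (log2 change 0.97 ± 0.16 (SE), adjusted p = 0.000121). DDIT4, an mTORC1 inhibitor gene, went from 144-384 CPM to 41.7-95.1 CPM (log2 change -2.02 ± 0.28 (SE), adjusted p = 3.36e-05), and HERPUD1, of endoplasmic reticulum protein degradation, fell (log2 change -0.93 ± 0.11 (SE), adjusted p = 5.68e-06). NRF2 target genes gave 6 rises and 2 falls among 19 tested, against 25.6% and 23.5% of all tested genes. Their median was 0.18, or 0.06 to 0.22 with 1 replicate left out, the farthest without siBRMsiHic5 replicate 3. SRXN1 (1.06 log2), OSGIN1 (1.17 log2) and ME1 (0.99 log2) rose, and GCLC (-0.72 log2), the catalytic subunit of glutathione synthesis, fell. Of 6 tested metallothionein and zinc genes 2 fell (median -0.21, but -0.40 without siBRMsiHic5 replicate 1 and -0.0096 without siBRMsiHic5 replicate 3), MT1X (-1.09 log2) and MT1G (-0.93 log2), which are similar copies and thus uncertain.

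Lipid synthesis genes gave 4 falls and 1 rise among 22 tested (median -0.04). With 1 replicate left out the median ran from -0.25 (without siBRMsiHic5 replicate 3) to 0.17 (without siBRMsiHic5 replicate 1). It was -0.18 without siHic5siNS replicate 1 and 0.13 without siHic5siNS replicate 3. The falls held the master regulators SREBF1 (log2 change -1.17 ± 0.29 (SE), adjusted p = 0.00315) and SREBF2 (log2 change -0.46 ± 0.12 (SE), adjusted p = 0.00527) beside STARD4 (-0.55 log2) and fatty acid synthase, FASN (-0.92 log2). Hypoxia and glycolysis genes gave 7 falls and 3 rises among 21 tested (median -0.21, but -0.06 without siHic5siNS replicate 1; 4 falls without siBRMsiHic5 replicate 2 or 3 and 3 without siHic5siNS replicate 2). The glycolytic enzymes ENO1 (0.86 log2) and LDHA (0.76 log2) rose, while VEGFA (-0.66 log2) and the mitophagy receptor BNIP3L (-0.60 log2) fell.

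Interferon-stimulated genes gave 5 falls and 3 rises among 25 tested, against 23.5% and 25.6% of all tested genes. Their median was -0.15, or -0.24 to -0.08 with 1 replicate left out, the farthest without siBRMsiHic5 replicate 3. OAS3, a double-stranded RNA sensor gene, was at 10.1, 6.89 and 10.9 CPM with vehicle and 8.33, 7.63 and 8.98 with dex in siHic5siNS and 18.8, 21.3 and 22.1 CPM with vehicle and 19.1, 24.6 and 21.9 with dex in siBRMsiHic5 (log2 change 1.28 ± 0.20 (SE), adjusted p = 0.000106), both under the 29.1 to 42.7 CPM of siNSsiNS. STAT2, an interferon signalling factor gene, fell (-0.93 log2), as did IFI44L (-1.65 log2). p53 target genes gave 5 falls and 1 rise among 22 tested, against 23.5% and 25.6% of all tested genes. Their median was -0.17, but -0.29 without siHic5siNS replicate 3. Without siHic5siNS replicate 2 the list gave 3 falls and a median of -0.04. TP53INP1, a proapoptotic cofactor gene, went from 131-239 CPM to 55.8-82.2 CPM (log2 change -1.38 ± 0.18 (SE), adjusted p = 1.66e-05), ZMAT3 (-1.0 log2) and SESN2 (-0.92 log2) fell, and BTG2, an antiproliferative gene, fell (-1.21 log2) but lost its call without siHic5siNS replicate 2 (-0.59).

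**Figure D5:**
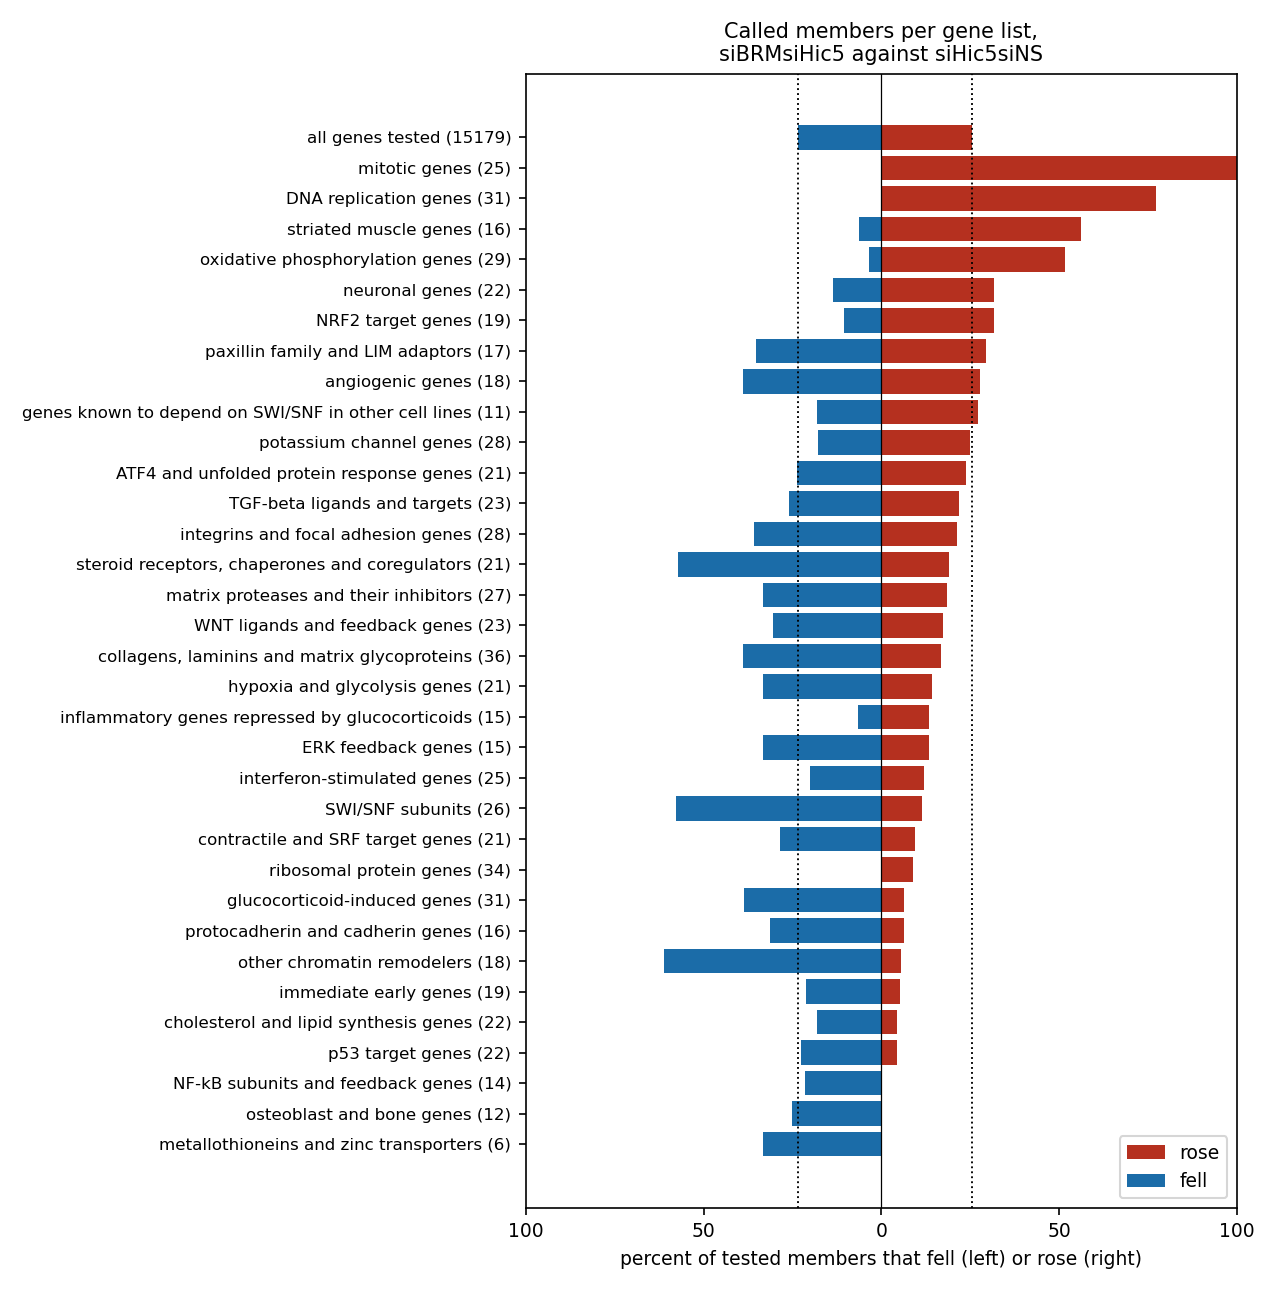
Percent of tested members (x axis) that rose (red, right) or fell (blue, left) in the summed comparison, 1 bar pair per gene list (y axis), with dotted lines at the shares over all tested genes, 25.6% up and 23.5% down. Mitotic, DNA replication, striated muscle and oxidative phosphorylation genes reach furthest to the right, and other chromatin remodelers, SWI/SNF subunits and coregulators furthest to the left.

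Whether dex changed the effect of BRM siRNA was tested as the difference of the dex and vehicle estimates. With 12 group means and no pairing, edgeR called 0 genes (0.00%), 302 had an unadjusted p under 0.05, and DESeq2 called 1. Vehicle and dex libraries of the same condition and number correlated in their deviations from the group means (r 0.544 to 0.747), so a fit with a term for each pair was made too. It called 28 genes (0.184%), 18 (0.119%) with a higher and 10 (0.0659%) with a lower estimate under dex, and 2141 at an unadjusted p under 0.05. The 28 ranged from 2 to 148 as single replicates were left out, the 148 without siHic5siNS replicate 3 and the 2 without siBRMsiHic5 replicate 3.

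TNFRSF11B fell less under dex: in siHic5siNS it was 79.9, 47.9 and 90.6 CPM with vehicle and 36.2, 12 and 31.7 with dex, in siBRMsiHic5 9.32, 8.06 and 9.43 and 5.64, 7.49 and 8.65. Its paired dex minus vehicle difference was 1.24 ± 0.23 log2 (SE; adjusted p = 0.0363), and without siHic5siNS replicate 2 or siBRMsiHic5 replicate 2 or 3 it was not called. PKHD1, the fibrocystin gene, had estimates of -2.57 with vehicle and -1.01 with dex (paired difference 1.54 ± 0.29, adjusted p = 0.0402), and ADAMTS7, a cartilage matrix protease gene, -0.98 and 0.29 (1.24 ± 0.16, adjusted p = 0.00578). UNC80, a subunit gene of the sodium leak channel, had -1.04 and 0.14 (1.20 ± 0.23, adjusted p = 0.0441).

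IL24, a cytokine gene, went the other way, with estimates of 1.55 with vehicle and 0.21 with dex (-1.50 ± 0.29, adjusted p = 0.0404). PNPLA7, a lysophospholipase gene, had 0.50 and -0.90 (-1.38 ± 0.23, adjusted p = 0.027). RMRP, the RNA of the RNase MRP enzyme (-3.77 ± 0.68, adjusted p = 0.035), and the gene with Entrez identifier 100312957, which has no symbol in the file (-4.05 ± 0.77, adjusted p = 0.0382), had large differences. The highest library of both was siHic5siNS replicate 3 with dex, at 11 and 26.2 CPM, followed by siBRMsiHic5 with vehicle in replicate 2, at 8.33 and 12.3 CPM, and replicate 3, at 5.32 and 4.62 CPM. These are 3 of the 6 libraries with a high share of RNA28S5. Of these 8 genes, ADAMTS7 alone was called in the paired fit with each replicate left out in turn.

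The last test asked whether the BRM siRNA effect differs with and without Hic-5 siRNA, as the estimate above minus that of siBRMsiNS over siNSsiNS. It called 2976 genes (19.6%), 1474 (9.71%) with a higher and 1502 (9.90%) with a lower estimate in Hic-5 siRNA cells. SMARCA2 itself was lowered by BRM siRNA in both settings, with -1.88 log2 without Hic-5 siRNA and -2.26 with it, and the difference did not pass the test (-0.38 ± 0.22, adjusted p = 0.242).

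In the mitotic list 23 of 25 members had a higher estimate with Hic-5 siRNA and none a lower one (median difference 1.23). CDC20 changed by -0.05 log2 without Hic-5 siRNA and 1.67 with it (difference 1.71 ± 0.34, adjusted p = 0.00298). CCNB1 changed by -0.07 and 1.38 (difference 1.45 ± 0.22, adjusted p = 0.000718). The replication list gave 6 higher and none lower. Matrix genes gave 14 lower and 2 higher of 36 (median difference -0.83): FN1 changed by -0.01 without Hic-5 siRNA and -2.55 with it (difference -2.54 ± 0.45, adjusted p = 0.00171).

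STYK1, a receptor-like kinase gene, had the smallest adjusted p of the 6 largest positive differences. It was at 6.6 to 11.2 CPM in siNSsiNS, 8.74 to 18.1 CPM in siBRMsiNS, 0.302 to 0.967 CPM in siHic5siNS and 6.59 to 14.4 CPM in siBRMsiHic5 (difference 3.40 ± 0.44, adjusted p = 0.000266). Only the siHic5siNS libraries lay apart from the rest. LOC284581 (3.64 ± 0.59, adjusted p = 0.000957) and MYL1 (4.24 ± 0.71, adjusted p = 0.00124) were likewise low in siHic5siNS alone. SEC16B, an endoplasmic reticulum export gene, was 3.16 to 11.7 CPM in siNSsiNS and at most 2.98 CPM in every other library of these conditions (difference 4.33 ± 0.61, adjusted p = 0.000439). NPPB (4.22 ± 1.43, adjusted p = 0.0479) lost its call with any 1 of 9 of the 12 replicates left out, and MYL4 (4.0 ± 0.80, adjusted p = 0.00344) with none.

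Among negative differences, CHI3L1, a secreted chitinase-like gene, was 0.226 to 0.464 CPM in siNSsiNS, 0.159 to 4.82 CPM in siBRMsiNS, 7.78 to 22.1 CPM in siHic5siNS and 0.776 to 2.85 CPM in siBRMsiHic5 (difference -5.52 ± 1.05, adjusted p = 0.00259). TNFAIP6 (-5.81 ± 1.08, adjusted p = 0.00219), MGP (-5.53 ± 1.34, adjusted p = 0.00978) and NFIA-AS2 (-5.51 ± 0.92, adjusted p = 0.00119) were likewise high in siHic5siNS libraries alone, and the call for TNFAIP6 was lost without siBRMsiNS replicate 3. HTN1 (-7.49 ± 1.52, adjusted p = 0.00373) and HTN3 (-6.07 ± 1.80, adjusted p = 0.0272), near-identical salivary histatin genes, had 3 and 4 counts over all siNSsiNS libraries. Their fitted differences depend on the prior count and are no bounds, and HTN3 was not called without siBRMsiNS replicate 3, siHic5siNS replicate 3 or siNSsiNS replicate 1 or 2.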

How the data were processed

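RNA-seq of total RNA was deposited as 1 table of whole-number read counts per gene, 15186 genes by 36 libraries. The authors' deposited values are raw counts by their values (0 were not whole), although the table's title speaks of upper-quartile normalised CPM. Reads were aligned with TopHat2 2.1.1 to GRCh38 and edgeR was used, per the submitters' processing notes. For the counter, annotation, edgeR version and strand setting, the entry is: not given in the sources used here. Genes carry Entrez identifiers and symbols, and 15116 matched RefSeq.

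Tested genes, 15179 in all (7 left out), exceeded 1 CPM after upper-quartile scaling in 3 or more of the 36 libraries. The main result came from edgeR 4.0.16 (R 4.3.3), glmQLFit and glmQLFTest with upper-quartile factors, on vehicle and dex counts summed per condition and replicate number, with 6 condition means and 12 residual degrees of freedom. Summing puts 1 vehicle and 1 dex library in every sum and avoids treating paired libraries as independent. Counts were not scaled before summing, so each library weighs by its depth. Vehicle and dex estimates, and their difference, came from 12 group means over 36 libraries (24 residual degrees of freedom), and the difference also from a fit with a term per pair, because vehicle and dex libraries of a number deviated together (r 0.544 to 0.747). Across siRNA conditions they did not (0.11, -0.22 and 0.25). P-values were adjusted by Benjamini-Hochberg over all tested genes, and 0.05 was the threshold. The biological coefficient of variation was 18.8% for sums. No 2 replicates were copies (lowest chi-square per degree of freedom 37.2). The scripts were tested on simulated counts.

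The genes compared and the 33 gene lists were chosen with earlier results of these data known. Named genes were the targets, CHD9, SMARCA4 and NR3C1; the 14 largest rises and 14 largest falls among called genes of at least 1 CPM whose conditions did not overlap; up to 4 called genes per list, by p; and the largest called dex minus vehicle and with minus without Hic-5 siRNA differences. Other list members are named as examples, picked after their values were seen. Some genes that the rule names are not reported here. Comparisons with siNSsiNS, the fit without replicates in which RNA28S5 took over 3% of a library's counts, and the length and GC offsets (GENCODE 29 transcripts, 97.8% of tested genes matched) were added after the data were seen. Alternatives were TMM or no factors, DESeq2 1.42.0, limma 3.58.1 voom, other filters, hormone as covariate, the replicate block and leaving out replicates. Promoters came from RefSeq (GRCh38.p14).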

Additional observations from a re-analysis of the deposited data

Results flagged for a closer look

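The effect of BRM siRNA differed with and without Hic-5 siRNA for 2976 genes, by a test of the difference itself. Among the genes named, the difference on the log2 scale was 4.33 for SEC16B, 4.24 for MYL1, 4.22 for NPPB, 4.0 for MYL4, 3.64 for LOC284581 and 3.40 for STYK1. Negative differences were -7.49 for HTN1, -6.07 for HTN3, -5.81 for TNFAIP6, -5.53 for MGP, -5.52 for CHI3L1 and -5.51 for NFIA-AS2. Both histatin values rest on 3 and 4 counts in the control condition.

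Between dex and vehicle the effect differed for 28 genes in the paired fit and for 0 without pairing. Named paired differences were 1.54 for PKHD1, 1.24 for ADAMTS7, 1.24 for TNFRSF11B and 1.20 for UNC80. Lower estimates under dex were -4.05 for the gene with Entrez identifier 100312957, -3.77 for RMRP, -1.50 for IL24 and -1.38 for PNPLA7. What sets these differences was not tested.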

How the results depend on the processing

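Counts of called genes stayed within 1.5 times the reported ones under the alternatives run for the summed, vehicle and dex comparisons, the difference with and without Hic-5 siRNA, and both comparisons with siNSsiNS, except for 4378 in the summed comparison with the 3 replicates of high RNA28S5 share left out, which keeps 1 replicate against 2. For the summed comparison they were 9583 with hormone as a covariate on the 12 libraries, 9463 for the mean of vehicle and dex contrasts, 7580 with limma voom, and 6230 to 6891 with 1 replicate left out. The dex minus vehicle difference gave 1 gene with DESeq2 and 28 with the replicate block; with single replicates left out of that paired fit it gave 54, 3 and 2 (siBRMsiHic5 replicates 1, 2 and 3) and 5, 7 and 148 (siHic5siNS replicates 1, 2 and 3), and the cause was not tested. With the replicate number as a block across conditions the calls were 7311 for the sums, 7441 with vehicle, 6866 with dex and 3328 for the difference with and without Hic-5 siRNA; numbers did not pair libraries across conditions, so this block shares only a number. With 1 replicate left out the TGFB1I1 estimate of -0.30 ranged from -0.50 to 0.074, the latter without siHic5siNS replicate 2. Of 156 genes followed in the summed comparison, 144 kept their direction and side of the threshold in every other setting, 9 lost their call in at least 1 (among them CRYAB, LIF, IL6, REL, RELA, JUNB, MKL1 and BTG2), 2 gained one (CHD9 and NR3C1) and 1 reversed (TGFB1I1). With those 3 replicates left out 21 of the 153 called named genes lost their call; mitotic genes gave 22 rises, replication genes 19, glucocorticoid-induced genes 8 falls and 1 rise, matrix genes 6 falls and 4 rises, SWI/SNF subunits 9 falls and 2 rises, and coregulators 5 falls and 2 rises. Knockdown was by siRNA at the RNA level with no protein data used here, both ATPase transcripts of SWI/SNF were lower together, and 3 replicates set the precision. Genes under about 1 CPM rest on few counts.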

Other observations

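The families below were picked after their values were seen, so their counts describe these libraries only. Clustered protocadherins, cell surface adhesion proteins with 1 promoter per variable exon, fell in most members: 10 of 15 tested alpha members fell (median log2 change -0.70), 15 of 15 beta members (median -1.42) and 14 of 14 gamma members (median -1.54), and none rose. Against siNSsiNS, in comparisons that share libraries, the beta list gave 15 higher and none lower in siHic5siNS, and 10 lower and none higher in siBRMsiHic5. Alpha and gamma transcripts share their constant exons and all 3 families hold similar copies, so single members are uncertain.

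Histone genes with HIST symbols gave 18 falls and no rise among 27 tested (median -0.97), while 24 of 31 tested replication genes rose. These genes are near-identical copies, and reads they share may have been split.

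Proteasome subunit genes gave 35 rises and 1 fall among 38 tested (median 0.65), the fall being the activator gene PSME4 (log2 change -0.61 ± 0.13 (SE), adjusted p = 0.000906). PSMC3, an ATPase of the base, rose most among them (log2 change 1.13 ± 0.23 (SE), adjusted p = 0.000989). Large-subunit genes of the mitochondrial ribosome gave 33 rises and no fall among 45 tested (median 0.54). In siHic5siNS against siNSsiNS the proteasome list gave 3 higher and 18 lower and the mitochondrial ribosome list 1 higher and 26 lower.

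HMOX1, the heme oxygenase gene, had a mean of 67.4 CPM in siNSsiNS, 90.7 in siBRMsiNS, 2182 in siHic5siNS and 538 in siBRMsiHic5 (log2 change -2.01 ± 0.40 (SE), adjusted p = 0.000756), while 6 other NRF2 target genes rose. Of 5 tested adipocyte markers 3 rose, CIDEC (log2 change 3.10 ± 0.67 (SE), adjusted p = 0.00135), FABP4 (log2 change 2.40 ± 0.58 (SE), adjusted p = 0.00304) and PPARG (1.05 log2), and 2 fell, PLIN4 (log2 change -1.35 ± 0.31 (SE), adjusted p = 0.00211) and LPL (-0.74 log2). The rises were 2 without siBRMsiHic5 replicate 3 or siHic5siNS replicate 1 or 3, and 1 marker fell without siBRMsiHic5 replicate 1 or 2 or siHic5siNS replicate 1 or 3.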
